A study of Homo sapiens with 2 samples.

Results

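The miRNAs encoded inside the HOX gene clusters were followed here in FaDu, a squamous carcinoma line of the hypopharynx that the labels spell FadU. The members are the 5p arms miR-10a-5p, miR-10b-5p, miR-196a-5p and miR-196b-5p, found by name in both small RNA tables. They are 4 of 2038 mature names, and all 4 were among the 269 names counted as measured, that is with a mean of at least 10 ppm over both libraries, where ppm stands for parts per 1000000 of the RPKM sum of a library. There were 2 libraries, 1 per group, so no value has a replicate check and no p-value is given. The parental group was FaDu in RPMI-1640 with 10% FBS. The spheres were FaDu in DMEM-F12 tumor sphere medium with N2 Plus Supplement and the growth factors bFGF and EGF, each at 10 ng/ml. Both media held penicillin and streptomycin, and both groups are the same cell line, which the labels call HNSCC (head and neck squamous cell carcinoma). Medium, serum, growth factors and growth form changed together, so their parts in any difference cannot be told apart. The description of the sphere sample calls it sphere-derived cancer stem cells, a state that no marker among these miRNAs checks.

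HOX genes encode homeodomain transcription factors that set position along the body axis, and cells of adult tissues often keep a HOX pattern of their place of origin. The miR-10 and miR-196 genes sit between the HOX genes and are often transcribed with their neighbours. A mature miRNA recognises messenger RNAs mainly through its seed, bases 2 to 8 from the 5′ end. The miR-196 miRNAs repress several HOX genes, HOXB8 being the best known target, and miR-10b is known as a TWIST1-induced miRNA that represses HOXD10 in breast carcinoma cells.

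The sequences that separate these miRNAs, and with them what a sequencing read can tell apart, are those held by RefSeq (GRCh38.p14). It matched 3 of the 4 members by name. miR-10b-5p had no match, so the bases that separate it from miR-10a-5p are not shown. Capitals mark the seed. The arms of the miR-615 hairpin, a further HOX cluster miRNA, are shown with them because of their sphere values, and miR-100-5p and let-7a-5p because their 5′ ends resemble those of miR-10 and miR-196.
miR-10a-5p: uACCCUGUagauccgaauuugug
miR-100-5p: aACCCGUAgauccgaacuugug
miR-196a-5p: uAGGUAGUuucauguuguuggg
miR-196b-5p: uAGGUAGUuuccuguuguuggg
let-7a-5p: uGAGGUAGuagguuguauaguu
miR-615-3p: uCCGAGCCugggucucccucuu
miR-615-5p: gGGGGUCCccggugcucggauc

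The seed AGGUAGU of miR-196a-5p was shared by miR-196b-5p and by no other of the 2370 mature names in the RefSeq table. Over the 22 bases of both, miR-196a-5p and miR-196b-5p differed by 1 substitution, A12C, counted from the 5′ end with the base of miR-196a-5p first. Reads of these miRNAs are therefore told apart at that base alone. The same 7 bases occur in let-7a-5p from base 3 to base 9, where its own seed is GAGGUAG, so the miR-196 and let-7 seeds overlap with a shift of 1 base. The seed ACCCUGU of miR-10a-5p is not that of miR-100-5p, which is ACCCGUA.

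miR-196a-5p has the same mature sequence at 2 genes in different clusters, and its value cannot be assigned to either. The hairpins below, with the mature arms in capitals, show that the loci differ in their loops and 3p arms.
MIR196A1: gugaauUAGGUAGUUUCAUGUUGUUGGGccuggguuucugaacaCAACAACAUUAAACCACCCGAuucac
MIR196A2: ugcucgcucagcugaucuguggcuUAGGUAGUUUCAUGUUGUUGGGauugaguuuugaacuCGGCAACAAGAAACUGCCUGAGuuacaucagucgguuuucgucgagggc
MIR196B: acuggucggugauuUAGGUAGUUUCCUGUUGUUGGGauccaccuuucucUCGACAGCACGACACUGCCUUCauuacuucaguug

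Positions are given on GRCh38, since the annotation at hand is of that build, while the submitters' processing notes name hg19. No position was used for a value. MIR10A lies in the HOXB cluster on the minus strand at chr17:48579838-48579947. GENCODE 29 places it in an exon of a HOXB4 transcript and in an intron of HOXB3. MIR196A1 lies in the same cluster at chr17:48632490-48632559, minus strand, between HOXB9 and HOXB13 and in an intron of a long HOXB7 transcript. MIR196A2 lies in the HOXC cluster at chr12:53991738-53991847, plus strand, between HOXC10 and HOXC9 and in an intron of HOXC6. MIR196B lies in the HOXA cluster at chr7:27169480-27169563, minus strand, between HOXA7 and HOXA10. HOXA9 transcripts have it in an exon or an intron, and the antisense gene HOXA10-AS overlaps it. MIR10B lies in the HOXD cluster at chr2:176150303-176150412, plus strand, between HOXD8 and HOXD4 and in an intron of HOXD3. The 4 members thus have 5 genes, spread over all 4 HOX clusters, and each member was above 0 in both libraries.

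Each miRNA is given as RPKM (reads per kilobase and 1000000 reads) as the authors deposited it, and in ppm, its share of the miRNA signal. The RPKM sum was 26530004 in the parental library and 5509071 in the spheres, 4.82 times lower. Which reads entered the authors' denominator is not stated, so both scales are printed. The estimated miRNA reads were 4542489 and 682359, from the commonest low value taken as 1 read on 22 nt. On the same assumption the RPKM values imply a denominator of about 7782765 reads in parental cells and 5630047 in spheres. The miRNA reads were 58.4% and 12.1% of these. What the other reads were was not tested. All 4 epithelial marker miRNAs were measured, at a summed 27932 ppm in parental cells and 67703 in spheres. They did not move together: miR-203a went from 2698 to 35056 ppm and miR-141-3p from 2710 to 12264 ppm, while miR-205-5p went from 21938 to 19458 ppm. Of the 4 mesenchymal markers 1 was measured, and their sum was 27.9 and 75.1. The endothelial marker miR-126-3p was at 38.3 and 68.9. The 4 blood markers summed to 742 and 226, of which the only measured one, miR-486-5p, made up 741 and 207. Of the other blood markers, miR-150-5p had 13.2 ppm in spheres, on about 9.0 reads, beside a parental value listed at 0, and miR-451a went from 0.44 to 5.86 ppm, on about 2.0 and 4.0 reads. The liver marker miR-122-5p and the neural marker miR-124-3p were listed at 0 in both libraries. The part of these other cell types in the values below was not tested.

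The miR-10 miRNAs were abundant, and the miR-196 miRNAs moderately so. miR-10a-5p had 97163 RPKM in parental cells and 16315 RPKM in spheres, or 3662 and 2962 ppm, and ranked 29 and 34 among all names. miR-10b-5p had 80226 RPKM and 13733 RPKM, or 3024 and 2493 ppm, at ranks 32 and 38. The pair of miR-10 miRNAs therefore stood within a few ranks of each other in both libraries, with miR-10a-5p the higher.

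miR-196a-5p had 16338 RPKM in parental cells and 2402 RPKM in spheres. These are 616 and 436 ppm, at ranks 63 and 81. miR-196b-5p had 13724 RPKM and 1614 RPKM, or 517 and 293 ppm, at ranks 70 and 93. The order of the 4 levels was the same in both libraries: miR-10a-5p, miR-10b-5p, miR-196a-5p and miR-196b-5p. The counting intervals of neighbours in that order did not overlap. As a percentage of the miRNA signal the closest neighbours were miR-196a-5p, at 0.062% in parental cells (95% interval 0.059% to 0.064%), and miR-196b-5p, at 0.052% (0.050% to 0.054%). In spheres these were 0.044% (0.039% to 0.049%) and 0.029% (0.025% to 0.034%). These intervals, like all below, are Clopper-Pearson intervals of estimated reads, fractions included, unless stated otherwise. Their width reflects the number of reads alone. It takes PCR duplicates for separate molecules and leaves out the spread between cultures.

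**Figure D1:**
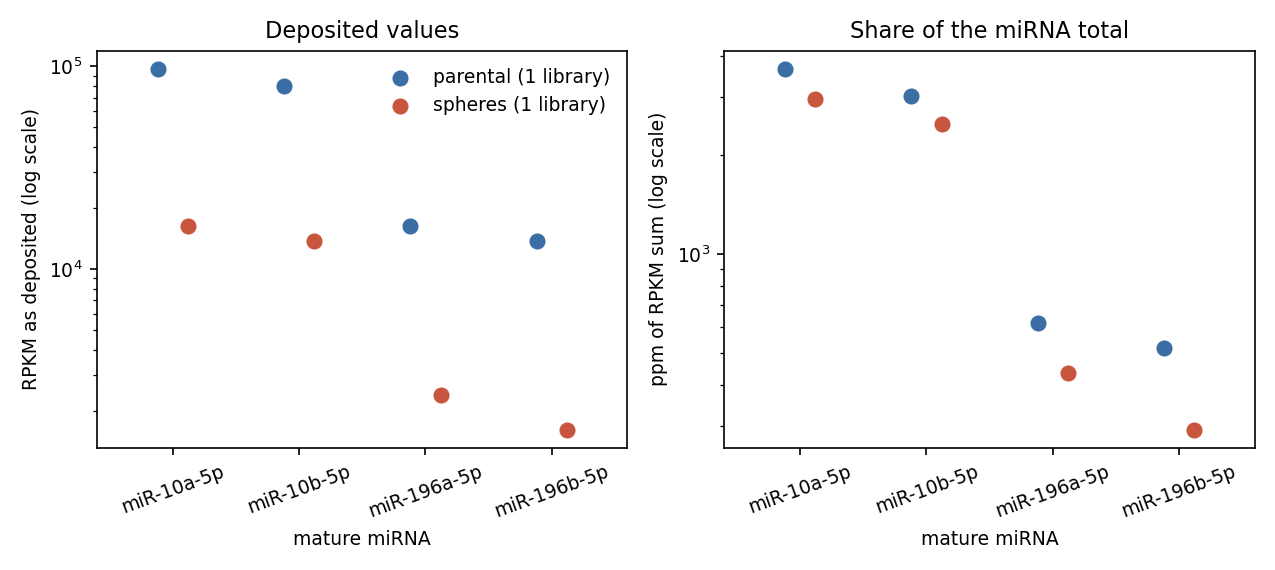
Levels of the 4 miRNAs in the parental library (blue) and the sphere library (red), 1 point per library, on logarithmic axes: RPKM as deposited on the left, and ppm on the right. On both scales each sphere point lies below its parental point, from 97163 and 16315 RPKM for miR-10a-5p to 13724 and 1614 RPKM for miR-196b-5p.

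In the spheres all 4 miRNAs had a smaller share of the miRNA signal, and none reached 2-fold. The log2 fold (spheres over parental, of ppm plus 0.5) was -0.31 for miR-10a-5p, with a counting interval of -0.37 to -0.24. It was -0.28 for miR-10b-5p (-0.35 to -0.21), -0.50 for miR-196a-5p (-0.68 to -0.33) and -0.82 for miR-196b-5p (-1.04 to -0.61). On the linear scale the sphere share of miR-10a-5p was 1.24-fold lower and that of miR-10b-5p 1.21-fold lower. That of miR-196a-5p was 1.41-fold lower, and that of miR-196b-5p 1.77-fold lower (1.53 to 2.05). Against 0 of 4 in either direction here, the 269 measured names had 19.0% lower and 23.0% higher by at least 2-fold. A log2 fold below 0 was found for 49.1% of the 269 and for 4 of 4 members. The median of the 4 was -0.40, beside 0.02 over the 269. miR-196b-5p was the lowest of the 4, and still 62 of the 269 measured miRNAs had a lower log2 fold. For miR-196a-5p these were 81, for miR-10a-5p 104 and for miR-10b-5p 108.

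**Figure D2:**
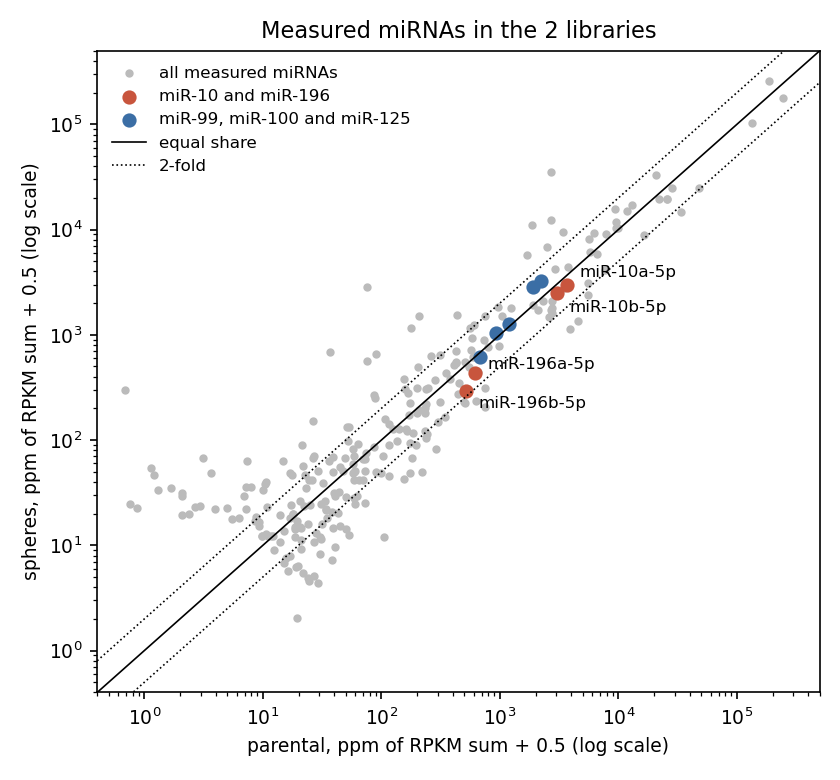
Share of the miRNA signal in spheres (vertical) against parental cells (horizontal) for the 269 measured miRNAs, in ppm plus 0.5 on logarithmic axes, with the solid line at equal share and dotted lines at 2-fold. The 4 HOX cluster miRNAs (red) lie below the solid line and within the dotted lines, while miR-99a-5p, miR-99b-5p, miR-100-5p and miR-125a-5p (blue) lie above the solid line and miR-125b-5p below it.

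The scale decides how large these differences are. On RPKM as deposited the log2 folds were -2.57 for miR-10a-5p, -2.55 for miR-10b-5p, -2.77 for miR-196a-5p and -3.09 for miR-196b-5p, so that 4 of 4 were at least 2-fold lower. Among the 269, 79.6% were lower by that much on the deposited scale as well and 6.32% higher, with a median of -2.25. The median of the 4 was -2.67. When the libraries were scaled by the median of ratios or by the trimmed mean of log ratios, miR-196b-5p passed 2-fold, at -1.03 and -1.02, beside 24.2% of the 269 under each. The other 3 stayed within 2-fold under every scaling but the deposited one. All 4 kept a negative log2 fold under each of the 6 other scalings tried.

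**Figure D3:**
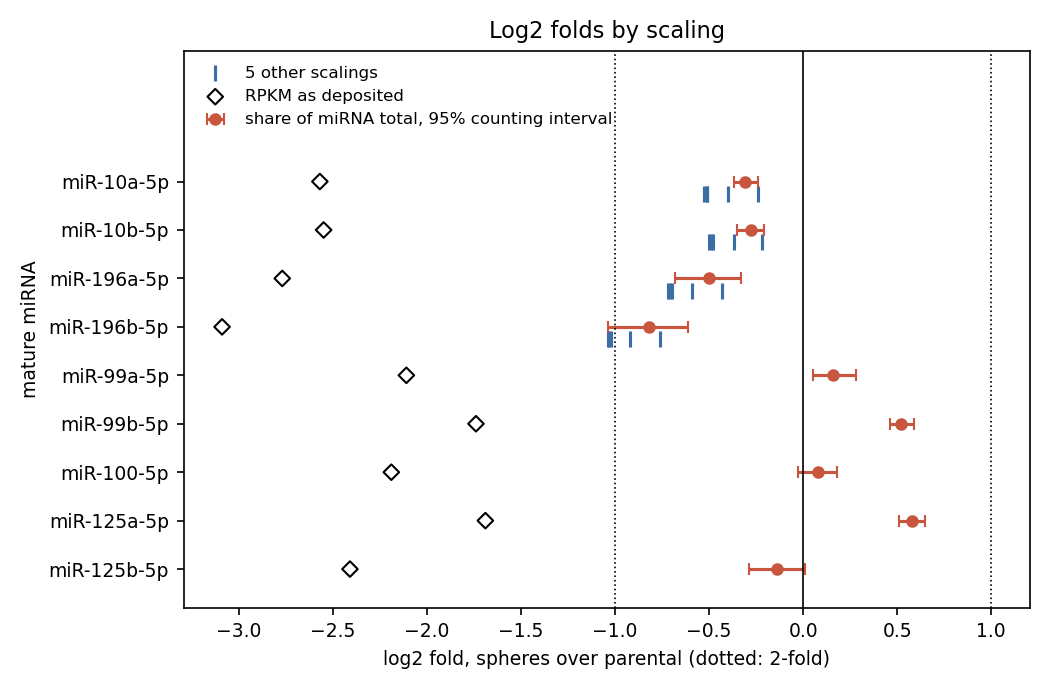
Log2 fold of spheres over parental for the 4 HOX cluster miRNAs and the 5 related miR-99, miR-100 and miR-125 miRNAs: red points with 95% counting intervals for shares of the miRNA total, black diamonds for RPKM as deposited, and blue ticks, drawn for the 4 HOX cluster miRNAs only, for 5 other scalings. The members run from -0.28 for miR-10b-5p to -0.82 for miR-196b-5p on the share scale, and the ticks of miR-196b-5p reach past the dotted line at 2-fold.

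Differences among the members do not depend on the scaling, since all 4 were read in the same 2 libraries. The 6 pairs of members were compared by the difference of their log2 folds, with a normal approximation of the 95% counting interval. miR-10a-5p and miR-10b-5p differed by -0.03 (-0.13 to 0.07), an interval that includes 0 and leaves room for a difference of up to 0.13. miR-196a-5p lay 0.32 above miR-196b-5p (0.05 to 0.59). miR-10a-5p lay 0.51 above miR-196b-5p (0.29 to 0.73) and 0.19 above miR-196a-5p (0.01 to 0.38). miR-10b-5p lay 0.54 above miR-196b-5p (0.32 to 0.76) and 0.22 above miR-196a-5p (0.03 to 0.41). A difference in log2 fold within the miR-10 pair was thus not detectable at this depth. The decrease in share was larger for miR-196b-5p than for each of the other 3, as far as counting error alone is considered.

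The same appears in the division of each pair. miR-10a-5p made up 54.8% of the reads of the miR-10 pair in parental cells (54.2% to 55.3%) and 54.3% in spheres (52.7% to 55.9%). miR-196b-5p made up 45.7% of the miR-196 pair in parental cells (44.3% to 47.0%) and 40.2% in spheres (35.9% to 44.6%). The miR-10 division was close in both libraries. That of miR-196 moved toward miR-196a-5p, with intervals that overlap slightly while the interval of the difference in log2 fold excludes 0. How the authors divided reads that match more than 1 miRNA is not given in the sources used here. Most estimated reads were fractions: 17.8% of parental and 19.6% of sphere values above 0 lay within 0.01 of a whole read. The division within each pair is therefore uncertain. The counting intervals take these fractions as counts, so they are approximate.

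**Figure D4:**
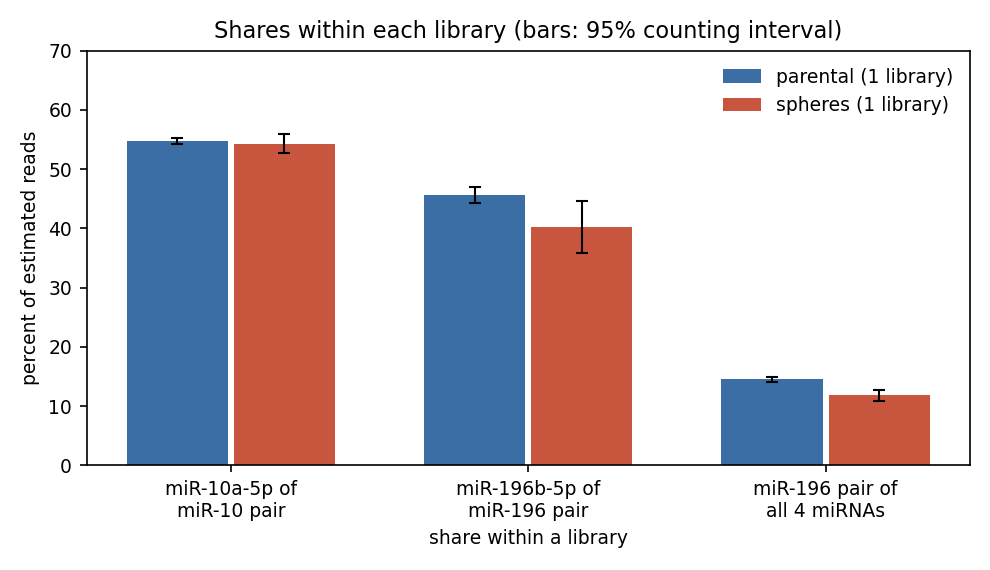
Shares of estimated reads within each library, in percent, for the parental (blue) and sphere (red) library, with 95% counting intervals as error bars. miR-10a-5p holds 54.8% and 54.3% of the miR-10 pair, miR-196b-5p 45.7% and 40.2% of the miR-196 pair, and the miR-196 pair 14.5% and 11.8% of the 4 miRNAs.

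Summing each pair sets this division aside. The summed miR-10 pair had 6686 ppm in parental cells and 5454 in spheres, a log2 fold of -0.29 (-0.34 to -0.24). The summed miR-196 pair had 1133 and 729, a log2 fold of -0.64 (-0.77 to -0.50). The miR-10 pair lay 0.34 above the miR-196 pair in log2 fold (0.20 to 0.48). Accordingly, the miR-196 pair took 14.5% of the reads of the 4 miRNAs in parental cells (14.1% to 14.9%) and 11.8% in spheres (10.8% to 12.8%). Together the 4 held 0.782% of the miRNA signal in parental cells (0.774% to 0.790%) and 0.618% in spheres (0.600% to 0.637%).

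The opposite arms of the MIR10A, MIR10B, MIR196A2 and MIR196B hairpins were low beside the 5p arms in both libraries. For the 3p arm of MIR196A1 no name was found among those listed, so it has no value here. miR-10a-3p had 98.3 RPKM in parental cells and 28.3 RPKM in spheres, about 16.8 and 3.5 reads, or 0.101% and 0.173% of the reads of its hairpin. miR-196a-3p, the arm of MIR196A2, had 67.2 RPKM and 16.1 RPKM, about 11.5 and 2.0 reads. miR-196b-3p had 49.6 RPKM and 8.07 RPKM, about 8.5 and 1.0 reads. These 3 arms thus rest on few sphere reads, and the counting intervals of their log2 folds include 0. miR-10b-3p was listed at 0 in both libraries, beside 13736 estimated parental reads of miR-10b-5p. A count of 0 allows up to 3 reads, or 0.0218% of that hairpin in parental cells, below the 0.101% of the other arm of miR-10a (0.0587% to 0.162%). In spheres the limit of 0.176% is above the value for miR-10a, so a difference between the 2 hairpins was not detectable there.

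Among the other HOX cluster miRNAs, miR-615 was lower in spheres on few reads. MIR615 lies in introns of HOXC4 and HOXC5, at chr12:54033950-54034045 on the plus strand. miR-615-3p had 323 RPKM in parental cells and 4.04 RPKM in spheres, or 12.2 and 0.733 ppm, on about 55.3 and 0.5 reads. Taking the sphere floor of 3 reads, 4.40 ppm, and the parental value without its counting error, its share was at least 2.77-fold lower. The counting interval of the ratio starts below that, at 1.71-fold. miR-615-5p had 218 RPKM and 8.07 RPKM, or 8.22 and 1.47 ppm, on about 37.3 and 1.0 reads. The ratio of its shares was 5.61-fold lower, with a counting interval of 0.947 to 227 that includes no difference. Both arms summed gave about 92.7 parental and 1.5 sphere reads, a ratio 9.28-fold lower (2.11 to 131). The sphere values of miR-615-5p and of the sum also lie under the floor of 3 reads, so the size of these ratios is not settled at this depth. Neither arm reached the mean of 10 ppm, and neither counts among the measured miRNAs. Of the 86 names with 30 to 100 estimated parental reads, a range chosen after the values were seen, 33.7% were at least 2-fold lower in spheres. A choice by parental reads favours lower sphere values, and the median log2 fold of these 86 was -0.46. Of them, 1 had a lower log2 fold than miR-615-3p and 9 had a lower one than miR-615-5p, and 8 had at most 1 sphere read. miR-3185, from the HOXB cluster, was listed at 0 in both libraries. For MIR7704 of the HOXD cluster no name was found among those listed, so it has no value here.

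By level in both libraries, the miRNAs nearest to the members came from other families, apart from the miR-10 pair itself. Nearness was the Euclidean distance of log2 ppm over the 2 libraries, which is a likeness of 2 values only. miR-10a-5p was nearest to miR-222-3p (distance 0.12; 3443 and 2805 ppm), then to miR-10b-5p (0.37) and miR-27b-3p (0.57). miR-10b-5p was nearest to miR-222-3p (0.25), miR-186-5p (0.29) and miR-10a-5p (0.37). miR-196a-5p was nearest to miR-106b-3p (0.08; 647 and 444 ppm), miR-30e-3p (0.25) and miR-27a-5p (0.45). miR-196b-5p was nearest to miR-141-5p (0.25; 443 and 273 ppm), miR-378a-3p (0.32) and miR-28-3p (0.35). The miR-196 miRNAs were not among each other's 3 nearest.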

How the data were processed

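Small RNA libraries (TruSeq small RNA kit, 1 µg total RNA, size fractionation, per the labels' protocols) were made from 1 parental and 1 sphere sample. The deposited files give 1 RPKM value per mature miRNA name, in the authors' own normalization, per the file headers. The build is hg19, per the submitters' processing notes. For the aligner, counter and miRNA annotation: not given in the sources used here.

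Rescaling made every column sum to 1000000 (ppm). Log2 folds used a pseudocount of 0.5, which understates changes of low miRNAs, and 2-fold was the threshold. Reads were estimated as RPKM over the commonest value above 0 (5.84 parental, 8.07 spheres), taken as 1 read on 22 nt. That this step is 1 such read is an assumption. Estimated reads, the implied denominators, the range of 30 to 100 parental reads, intervals and floors (3 reads) use it. It cancels in the shares within pairs and hairpins, though not in their intervals. The miRNA percentages of the denominators rest on the 22 nt alone. The 2-fold calls, and the ratio interval at about the parental reads of miR-196b-5p, were tested on simulated whole reads. Fractional reads, very low counts and the other intervals were not simulated. Python 3.11.15, scipy 1.17.1 and matplotlib 3.10.9 were used.

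Named besides the members were the other HOX cluster miRNAs, the miR-99, miR-100 and miR-125 5p arms, and the 3 nearest miRNAs of each member. Members and lists were chosen with earlier results of these data known. Alternatives were 6 other scalings, other pseudocounts and filters, summed arms and mature lengths.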

Additional observations from a re-analysis of the deposited data

How the results depend on the processing

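No paired analysis was possible because each group has a single library, which also leaves no replicate to omit. No log2 fold of a member or of a pair changed sign under any scaling. RPKM as deposited moved them most, to -2.57 (miR-10a-5p), -2.55 (miR-10b-5p), -2.77 (miR-196a-5p), -3.09 (miR-196b-5p), -2.56 (miR-10 pair) and -2.90 (miR-196 pair), with 17 measured miRNAs at least 2-fold higher and 214 lower in place of 62 and 51. The shift follows from its construction, since the RPKM sums differ. The median of ratios gave -0.51, -0.49 and -0.71 for the first 3 members and -0.50 and -0.84 for the pairs. The trimmed mean gave -0.51, -0.48, -0.70, -0.49 and -0.83. The column sum without the most abundant miRNAs gave -0.40 (miR-10a-5p), -0.37 (miR-10b-5p) and -0.39 (miR-10 pair). The upper quartile of miRNAs above 0 in both libraries gave -0.23 for the miR-10 pair and left miR-196b-5p at -0.76. The upper quartile of the measured miRNAs, added after seeing the data, gave -0.53, -0.50, -0.72 and -1.04 for the members and -0.51 and -0.86 for the pairs. The last value of the members passed 2-fold, as did 24.2% of the 269. Without a filter on low values, 193 of 972 names were at least 2-fold higher and 180 lower. At a mean of at least 100 ppm these were 23 and 18 of 129. The number of names entering differs between these settings, so the counts are not to be compared without it. Pseudocounts of 0 and 5, mature lengths and summed arms moved no value of a member or pair beyond its counting interval. These settings could move little. A length is the same in both libraries and cancels in a fold, the opposite arms hold few reads, and the pseudocounts are small beside the levels. Mature length was not run for miR-10b-5p. The 200 estimated sphere reads of miR-196b-5p set the widest interval among the members.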

Other observations

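The miR-99, miR-100 and miR-125 miRNAs, of which miR-99 and miR-100 are related in sequence to miR-10, lie outside the HOX clusters. miR-99b-5p had 2241 ppm in parental cells and 3223 in spheres, and miR-125a-5p, from the same cluster on chromosome 19, 1899 and 2837. Their log2 folds of 0.52 (0.46 to 0.59) and 0.58 (0.51 to 0.65) stayed above 0 under all scalings except RPKM as deposited, where they were -1.74 and -1.69. miR-99a-5p (0.16), miR-100-5p (0.08) and miR-125b-5p (-0.14) were closer to 0. The first 2 of these fell below 0 with the median of ratios, at -0.05 and -0.13, and with the trimmed mean, at -0.04 and -0.12. They did so too with the upper quartile of the measured miRNAs, at -0.06 and -0.14, and on RPKM as deposited. miR-100-5p was also at -0.02 without the most abundant miRNAs. The direction of these 2 thus depends on the scaling. The summed miR-10 pair lay 0.63 below the sum of miR-99a-5p, miR-99b-5p and miR-100-5p in log2 fold (-0.70 to -0.56 by counting error), a difference that no scaling changes.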
